A study of Mus musculus with 6 samples.

Results

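The replication-dependent and linker histone genes of mouse CD8+ T cells were described in bulk RNA-seq libraries, 6 in all. The genes were those named H1f0 to H1f5 or by the cluster symbols H2ac, H2bc, H3c and H4c followed by a number, with a value above 0 in at least 2 libraries. Of 18122 rows, 58 had such a name and 57 met the rule, comprising 6 H1, 15 H2A, 14 H2B, 10 H3 and 12 H4 genes. H2bc7 fell outside with 0.0383 FPKM in 1 library and 0 in the others. H3c4 fell just inside, at 0 in every library but those of WT CD44hi, where it had 0.0368 and 0.0283 FPKM. FPKM are fragments per kilobase of gene length, scaled to the depth of a library. Most of these messages are short and lack a poly(A) tail, which division by length does not correct for, so levels are best compared within a class.

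The libraries came from Dusp2-/- CD8+ T cells sorted as CD44hi (2 libraries), WT CD44hi (2 libraries), Dusp2-/- CD44lo (1 library) and WT CD44lo (1 library). Dusp2 encodes a phosphatase that acts on MAP kinases, and CD44 is a surface glycoprotein that marks activated and memory T cells. All cells were taken from lymph nodes and held before the sort for 18 h on plate-bound anti-CD3 with anti-CD28 (1 µg/mL each) and with 20 ng/mL of IL-4 and 50 ng/mL of IFN-α, both cytokines, so every group was stimulated and none was resting. The age of the mice is not stated. Nothing says whether libraries of a group were made from different mice or cultures, and p-values therefore measure only the spread between these libraries, which may be technical. The titles and genotype labels give Dusp2-/-, whereas the treatment text names Cd4-Cre Rpa1fl/fl mice. Dusp2 was at 0 and 0.0283 FPKM in Dusp2-/- CD44hi and 0 in Dusp2-/- CD44lo, against 82.6 and 83.9 in WT CD44hi and 116 in WT CD44lo, and Rpa1 was at 28.2 to 41.4 FPKM with Dusp2 lost and 27.4 to 35.2 FPKM in WT cells.

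Replication-dependent histone genes supply the core histones H2A, H2B, H3 and H4 around which DNA is wrapped, and their messages accumulate during S phase, when new chromatin is assembled. Their messages typically end in a conserved stem-loop, bound by the stem-loop binding protein SLBP, instead of a poly(A) tail. Linker histones of the H1 family bind the DNA between nucleosomes. H1f0 is a replacement form with a polyadenylated message that is known from differentiated and non-dividing cells. Whether the libraries were made from poly(A)-selected RNA is not given in the sources used here, and any such selection would act on the level recorded for these messages.

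The stem-loop was looked for in the transcripts of GENCODE vM21 (GRCm38) as a 6-base stem, a 4-base loop and the matching 6 bases. Of 55 members matched to that annotation, 35 held it and 20 did not. Those 35 held 6 different sequences, shown here because they are the 3′-end signal that separates these messages from polyadenylated ones, with the stem in capitals and the loop in lower case.
Stem-loop of 19 members, among them H3c1, H2bc11, H2ac11, H2ac8, H1f2 and H1f4: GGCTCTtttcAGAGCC
Stem-loop of 6 H4 members, H4c3, H4c4, H4c6, H4c8, H4c17 and H4c18: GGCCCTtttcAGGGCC
Stem-loop of 5 members, H3c3, H3c6, H3c7, H2bc3 and H2bc12: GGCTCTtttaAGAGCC
Stem-loop of 2 members, H4c9 and H4c14: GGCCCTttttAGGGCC
Stem-loop of 2 members, H4c2 and H4c11: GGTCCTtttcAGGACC
Stem-loop of 1 member, H2ac20: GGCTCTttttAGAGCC
In 16 of the 35, over 100 annotated bases followed the stem-loop, among them H1f2 with 840, H1f4 with 1153 and H4c4 with 770 bases. In H3c1 the transcript ran 37 bases past it, in H3c3 74 bases and in H2bc11 23 bases. No stem-loop was found in the annotated transcripts of H1f0, H1f1, H1f5, H2bc21 or H2bc4, which says only that these letters are not in those models. A model that stops early would also lack it.

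Most of the genes were weakly detected. The median of the members' means was 0.666 FPKM, against 2.51 FPKM for the rows above 0 in at least 2 libraries, and 26 of the 57 had a mean of at least 1 FPKM and entered the tests. The other 31 had means between 0.0108 and 0.891 FPKM. A library was at 0 for 21 members, WT CD44lo for 15 of them and Dusp2-/- CD44lo for 14. Reads recovered from the FPKM steps came to 55782810 and 52077365 in Dusp2-/- CD44hi, 42816073 and 55830235 in WT CD44hi, 23490008 in Dusp2-/- CD44lo and 50084878 in WT CD44lo. At these depths 3 reads of a 1000-base gene equal 0.128 in Dusp2-/- CD44lo and between 0.0537 and 0.0701 FPKM in the other libraries, counting error only. The WT CD44hi libraries differed more from each other than the Dusp2-/- CD44hi libraries did, with a chi-square per degree of freedom of 31.2 over genes against 6.84, and results without each library are given where they change.

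The summed level of every core histone class followed the order Dusp2-/- CD44hi, WT CD44hi, Dusp2-/- CD44lo and WT CD44lo, from highest to lowest. H3 genes together reached 55.9 and 59.7 FPKM in Dusp2-/- CD44hi, 32.2 and 33.7 in WT CD44hi, 29.3 in Dusp2-/- CD44lo and 6.45 in WT CD44lo. H2A genes reached 15.9 and 18.8 FPKM in Dusp2-/- CD44hi, 11.04 and 10.9 in WT CD44hi, 6.17 in Dusp2-/- CD44lo and 1.64 in WT CD44lo. The Dusp2-/- libraries lay above the WT libraries of the same fraction in both classes, and the WT CD44lo library was the lowest. H2B genes summed to 32.1 and 37.0 FPKM in Dusp2-/- CD44hi, 24.5 and 28.2 in WT CD44hi, 20.8 in Dusp2-/- CD44lo and 11.5 in WT CD44lo. H4 genes summed to 31.2 and 24.7 FPKM in Dusp2-/- CD44hi, 19.3 and 18.2 in WT CD44hi, 16.4 in Dusp2-/- CD44lo and 8.84 in WT CD44lo. Here too the CD44hi groups did not overlap.

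**Figure D1:**
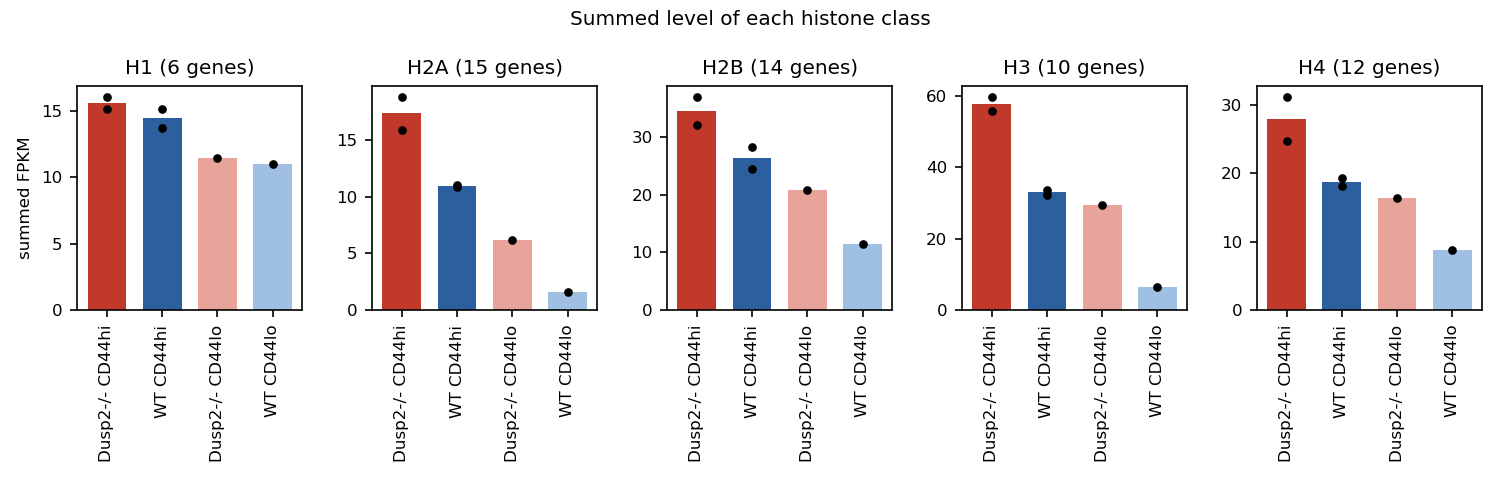
Summed FPKM of the genes of each histone class (y axis, separate scale per class) in the 4 groups (x axis); bars are means of 2 libraries in CD44hi and the 1 library in CD44lo, points are libraries. The core classes step down across the groups, with H3 at 57.8 ± 2.74 FPKM in Dusp2-/- CD44hi and 32.9 ± 1.04 in WT CD44hi (SD, n = 2 each), whereas H1 spans 11.0 to 16.1 FPKM over all libraries.

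As ratios of group means, Dusp2-/- CD44hi over WT CD44hi was 1.75 for H3, 1.59 for H2A, 1.49 for H4, 1.31 for H2B and 1.08 for H1. Over the 51 core genes together it was 1.55 in CD44hi and 2.56 in CD44lo, the second from 1 library per genotype. The core sum in CD44hi over that in CD44lo was 1.89 in Dusp2-/- cells and 3.13 in WT cells. The ratio for H2B rested largely on H2bc11, without which it was 1.06, and that for H1 was 1.29 without H1f2. The H1 sums were 16.1 and 15.1 FPKM in Dusp2-/- CD44hi and 13.8 and 15.2 in WT CD44hi, which overlapped, with 11.5 in Dusp2-/- CD44lo and 11.0 in WT CD44lo. In bulk samples, fewer cells with these messages and less message per cell cannot be told apart.

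Over all 57 members, tested or not, 27 were higher in both Dusp2-/- CD44hi libraries than in both WT CD44hi libraries, where 28.3% of all rows were, and 7 were lower in both, where 29.4% of all rows were. In the CD44lo pair 35 members were higher in Dusp2-/- (44% of all rows) and 14 were lower (49.3% of all rows). Higher in Dusp2-/- in both fractions were 24 members, 42.1% of them, against 15.3% of all rows, and 4 were lower in both, where 16.9% of all rows were. Higher in CD44hi than in CD44lo in both genotypes were 29 members, 50.9% of them, against 28.3% of all rows. This count is a description, since 8 members, such as H2ac12 and H3c2, were at 0 in both CD44lo libraries. They met the rule only through CD44hi and could not be lower there. All rows counted here met the same rule of a value above 0 in at least 2 libraries. Of the 57, 40 had their highest value in a Dusp2-/- CD44hi library (33.2% of all rows), and 39 were lowest, or tied for lowest, in WT CD44lo (31.5% of all rows). The 39 include the 15 members at 0 in WT CD44lo, which could only be lowest or tied there.

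Among the 26 tested members, 13 rose and 1 fell in Dusp2-/- CD44hi relative to WT CD44hi (limma on log2(FPKM + 1), Benjamini-Hochberg adjusted p below 0.05), while 12.9% of the 9691 genes tested rose and 13.8% fell. By class, 4 of 4 tested H2A genes, 4 of 5 H3 genes, 3 of 6 H4 genes, 1 of 7 H2B genes and 1 of 4 H1 genes rose, and 1 H1 gene, H1f0, fell. The median log2 difference was 0.46 for the tested members and -0.02 for all genes tested. Without the first or without the second Dusp2-/- CD44hi library 9 members passed in each case, and 5 of the 14 calls, H3c3, H3c1, H3c6, H2bc11 and H1f1, were kept whichever of the 6 libraries was left out. With the filter on low values removed, none passed after adjustment in limma, with 19 below an unadjusted p of 0.05, and limma voom on recovered reads called 7 higher and 1 lower of the same 26 members. With a minimum of 10 reads, voom on 50 members called 5 higher and 0 lower, against 11.3% and 10% of the genes tested in that way.

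Between fractions, 16 of the 26 rose in CD44hi relative to CD44lo with genotype adjusted for, and none fell, against 16.6% and 10.8% of all genes tested. The median log2 difference was 0.72 for the tested members and 0.05 for all genes tested. Within Dusp2-/- cells 15 rose (23.6% of all genes tested) and within WT cells 18 rose (15.4% of all genes tested). Each CD44lo group is 1 library, which is assumed to vary as the CD44hi pairs do. The filter took the mean of 6 libraries, 4 of them CD44hi, and 9 of the 26 members averaged under 1 FPKM in CD44lo and entered only through the fraction in which they were high. These were H1f1, H2ac8, H2ac11, H2ac15, H2bc12, H2bc14, H3c11, H4c3 and H4c8, and 7 of the 16 rises were theirs, so their differences between fractions are descriptions. Of the other 17 members 9 rose and none fell, with a median log2 difference of 0.49, against 15.2% and 11.2% of the 9367 genes with a CD44lo mean of at least 1 FPKM. Limma voom on recovered reads with a minimum of 10 reads tested 50 members, of which 13 rose and none fell with genotype adjusted for (12.5% and 7.51% of all genes tested in that way). Within WT cells 12 rose and none fell (11.9% and 8.95%), whereas within Dusp2-/- cells 4 rose and 1, H4c14, fell (14.8% and 9.5%), a share of rises below that of all genes.

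**Figure D2:**
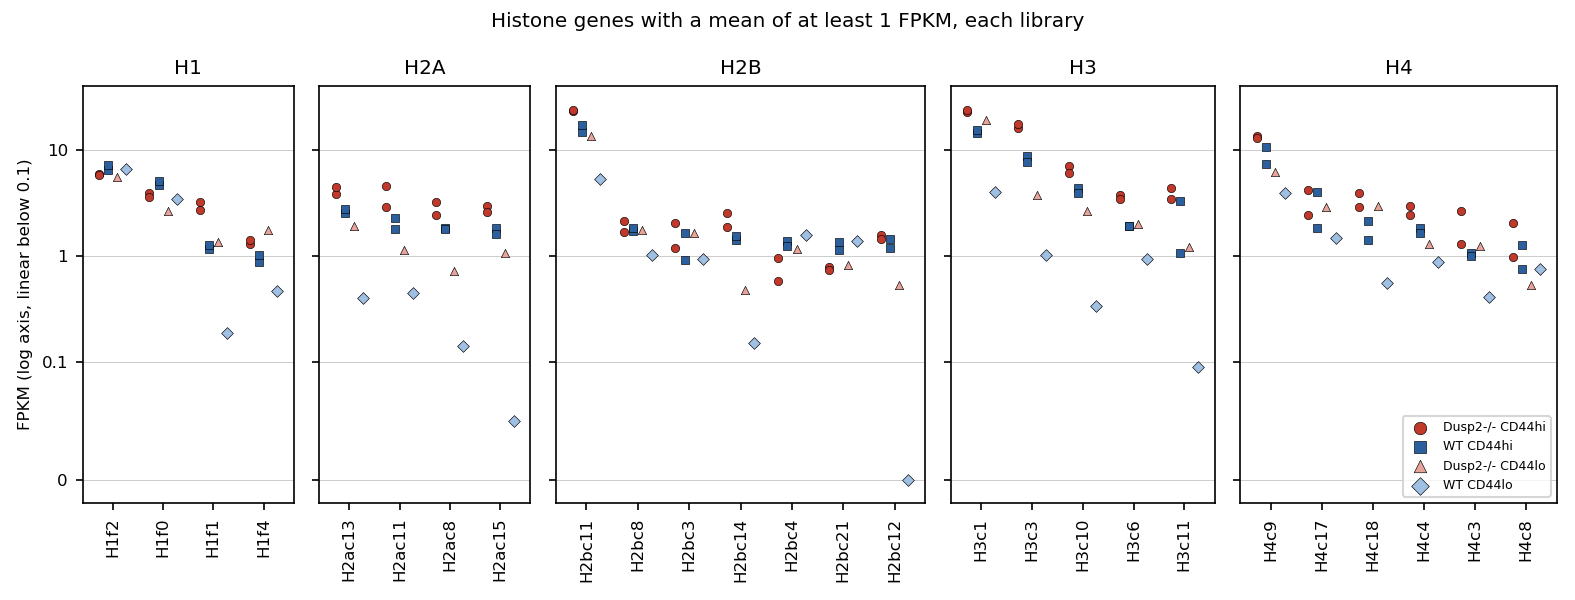
FPKM (y axis, logarithmic above 0.1 and linear below) of the 26 members with a mean of at least 1 FPKM, by histone class and descending mean; each point is 1 library and the marker gives the group. H3c1, H2bc11, H3c3 and H4c9 have the highest means, and WT CD44lo lies lowest for most genes but not for H1f2, H1f0, H2bc3, H2bc4, H2bc21 or H4c8.

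In recorded FPKM, the H3 class had the highest sum in every library but WT CD44lo, where H2B, H1 and H4 exceeded it. Such sums do not rank the classes by their messages in the cells. H3c1 was at 22.9 and 23.6 FPKM in Dusp2-/- CD44hi, 14.3 and 15.4 in WT CD44hi, 19.2 in Dusp2-/- CD44lo and 3.97 in WT CD44lo. Its Dusp2-/- CD44lo library thus lay above both WT CD44hi libraries. H3c1 rose in Dusp2-/- CD44hi by 0.61 ± 0.069 log2 units (SE, limma adjusted p = 0.00299) and in CD44hi over CD44lo by 0.97 ± 0.27 (limma adjusted p = 0.0353), the second lost without either WT CD44hi library (limma adjusted p up to 0.109).

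H3c3 was at 16.2 and 17.7 FPKM in Dusp2-/- CD44hi, 8.68 and 7.65 in WT CD44hi, 3.72 in Dusp2-/- CD44lo and 1.03 in WT CD44lo. No groups overlapped, and the Dusp2-/- values were the higher ones in each fraction. It had the largest rise of the tested members in both comparisons, 0.97 ± 0.090 log2 units in Dusp2-/- CD44hi (SE, limma adjusted p = 0.00174) and 2.05 ± 0.10 in CD44hi over CD44lo (limma adjusted p = 3.5e-05). H3c10 was at 7.04 and 6.07 FPKM in Dusp2-/- CD44hi, 4.36 and 3.95 in WT CD44hi, 2.65 in Dusp2-/- CD44lo and 0.334 in WT CD44lo, a rise of 0.55 ± 0.10 log2 units in Dusp2-/- CD44hi that was not past the threshold without its first library (limma adjusted p = 0.0698).

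H3c6 was at 3.76 and 3.44 FPKM in Dusp2-/- CD44hi, 1.92 and 1.90 in WT CD44hi, 2.00 in Dusp2-/- CD44lo and 0.940 in WT CD44lo, a rise of 0.66 ± 0.092 log2 units in Dusp2-/- CD44hi (limma adjusted p = 0.00538). The Dusp2-/- CD44lo value lay just above both WT CD44hi values. H3c11 was at 3.44 and 4.32 FPKM in Dusp2-/- CD44hi but at 1.06 and 3.31 in WT CD44hi, so its difference of 0.71 ± 0.31 log2 units did not pass the test (limma adjusted p = 0.139). Below the filter, H3c8 was at 1.40 and 2.50 FPKM in Dusp2-/- CD44hi, 0.694 and 0.599 in WT CD44hi, 0.158 in Dusp2-/- CD44lo and 0 in WT CD44lo.

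The 4 tested H2A genes, all at under 5 FPKM, rose in Dusp2-/- CD44hi. H2ac13 was at 3.82 and 4.43 FPKM in Dusp2-/- CD44hi, 2.52 and 2.78 in WT CD44hi, 1.92 in Dusp2-/- CD44lo and 0.400 in WT CD44lo. H2ac15 was at 2.96 and 2.60 FPKM in Dusp2-/- CD44hi, 1.81 and 1.62 in WT CD44hi, 1.07 in Dusp2-/- CD44lo and 0.0500 in WT CD44lo. In both genes the 4 groups were ordered in the same way without overlap. H2ac11 was at 2.87 and 4.60 FPKM in Dusp2-/- CD44hi, 1.80 and 2.26 in WT CD44hi, 1.12 in Dusp2-/- CD44lo and 0.445 in WT CD44lo. H2ac8 was at 2.41 and 3.25 FPKM in Dusp2-/- CD44hi, 1.83 and 1.78 in WT CD44hi, 0.714 in Dusp2-/- CD44lo and 0.139 in WT CD44lo. The rises in Dusp2-/- CD44hi ran from 0.44 log2 units in H2ac8 to 0.63 in H2ac11 (limma adjusted p between 0.0184 and 0.0459), and the differences in CD44hi over CD44lo from 1.10 in H2ac13 to 1.22 in H2ac8, a description for all but H2ac13. Each of the 4 genotype calls was lost in at least 1 fit without a CD44hi library (limma adjusted p up to 0.359). Leaving out the second Dusp2-/- library ended all 4, the first Dusp2-/- library that of H2ac15, the first WT library those of H2ac11 and H2ac8 and the second WT library that of H2ac8. Of the 11 H2A genes below the filter, 6 were higher in both Dusp2-/- CD44hi libraries than in both WT CD44hi libraries and 1 was lower.

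Among the H2B genes, H2bc11 carried most of the level and was the 1 of 7 tested that rose in Dusp2-/- CD44hi. H2bc11 was at 23.1 and 23.9 FPKM in Dusp2-/- CD44hi, 14.6 and 17.2 in WT CD44hi, 13.4 in Dusp2-/- CD44lo and 5.26 in WT CD44lo, which is 45.8% to 71.9% of the H2B sum in each library. The groups did not overlap, and it rose by 0.54 ± 0.089 log2 units in Dusp2-/- CD44hi (SE, limma adjusted p = 0.00904) and by 1.10 ± 0.15 in CD44hi over CD44lo (limma adjusted p = 0.00201). H2bc14 was at 1.89 and 2.53 FPKM in Dusp2-/- CD44hi, 1.40 and 1.55 in WT CD44hi, 0.480 in Dusp2-/- CD44lo and 0.150 in WT CD44lo. H2bc12 was at 1.56 and 1.43 FPKM in Dusp2-/- CD44hi, 1.45 and 1.19 in WT CD44hi, 0.528 in Dusp2-/- CD44lo and 0 in WT CD44lo. Both genes entered the test through CD44hi, where every value was above those of CD44lo, and H2bc12 was not called between fractions by voom with a minimum of 10 reads (adjusted p = 0.0729).

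Other H2B genes had another pattern. H2bc4 was at 0.580 and 0.949 FPKM in Dusp2-/- CD44hi, 1.37 and 1.24 in WT CD44hi, 1.16 in Dusp2-/- CD44lo and 1.58 in WT CD44lo. H2bc21, an H2B gene on chromosome 3, was at 0.788 and 0.736 FPKM in Dusp2-/- CD44hi, 1.12 and 1.34 in WT CD44hi, 0.815 in Dusp2-/- CD44lo and 1.38 in WT CD44lo. Both were lower in each Dusp2-/- library than in either WT library of its fraction and highest in a WT library, with log2 differences in CD44hi of -0.39 ± 0.13 and -0.34 ± 0.11 that did not pass the test (limma adjusted p = 0.0656 and 0.0559). H2bc8 and H2bc3 overlapped between the genotypes in CD44hi, with H2bc8 at 1.68 and 2.11 FPKM in Dusp2-/- CD44hi and 1.71 and 1.83 in WT CD44hi.

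H4c9 held 37.8% to 58.7% of the H4 sum. It was at 13.5 and 12.9 FPKM in Dusp2-/- CD44hi, 7.30 and 10.7 in WT CD44hi, 6.22 in Dusp2-/- CD44lo and 3.89 in WT CD44lo. The groups did not overlap, and it rose by 0.52 ± 0.15 log2 units in Dusp2-/- CD44hi (SE, limma adjusted p = 0.0457), a call lost without the first Dusp2-/- CD44hi library (limma adjusted p = 0.0525), and by 0.99 ± 0.14 in CD44hi over CD44lo (limma adjusted p = 0.00194). H4c18 was at 3.94 and 2.90 FPKM in Dusp2-/- CD44hi, 2.14 and 1.40 in WT CD44hi, 2.92 in Dusp2-/- CD44lo and 0.548 in WT CD44lo. H4c4 was at 2.95 and 2.44 FPKM in Dusp2-/- CD44hi, 1.84 and 1.64 in WT CD44hi, 1.29 in Dusp2-/- CD44lo and 0.880 in WT CD44lo. These rose in Dusp2-/- CD44hi by 0.68 ± 0.17 and 0.43 ± 0.11 log2 units, and neither call was kept in every fit that left out a CD44hi library. That of H4c18 was lost without the first Dusp2-/- or the second WT CD44hi library (limma adjusted p up to 0.0800), and that of H4c4 without either Dusp2-/- or the second WT CD44hi library (limma adjusted p up to 0.247). H4c17 varied within genotype, at 4.21 and 2.45 FPKM in Dusp2-/- CD44hi and 4.003 and 1.84 in WT CD44hi, and did not pass the test in either comparison, like H4c3 and H4c8.

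**Figure D3:**
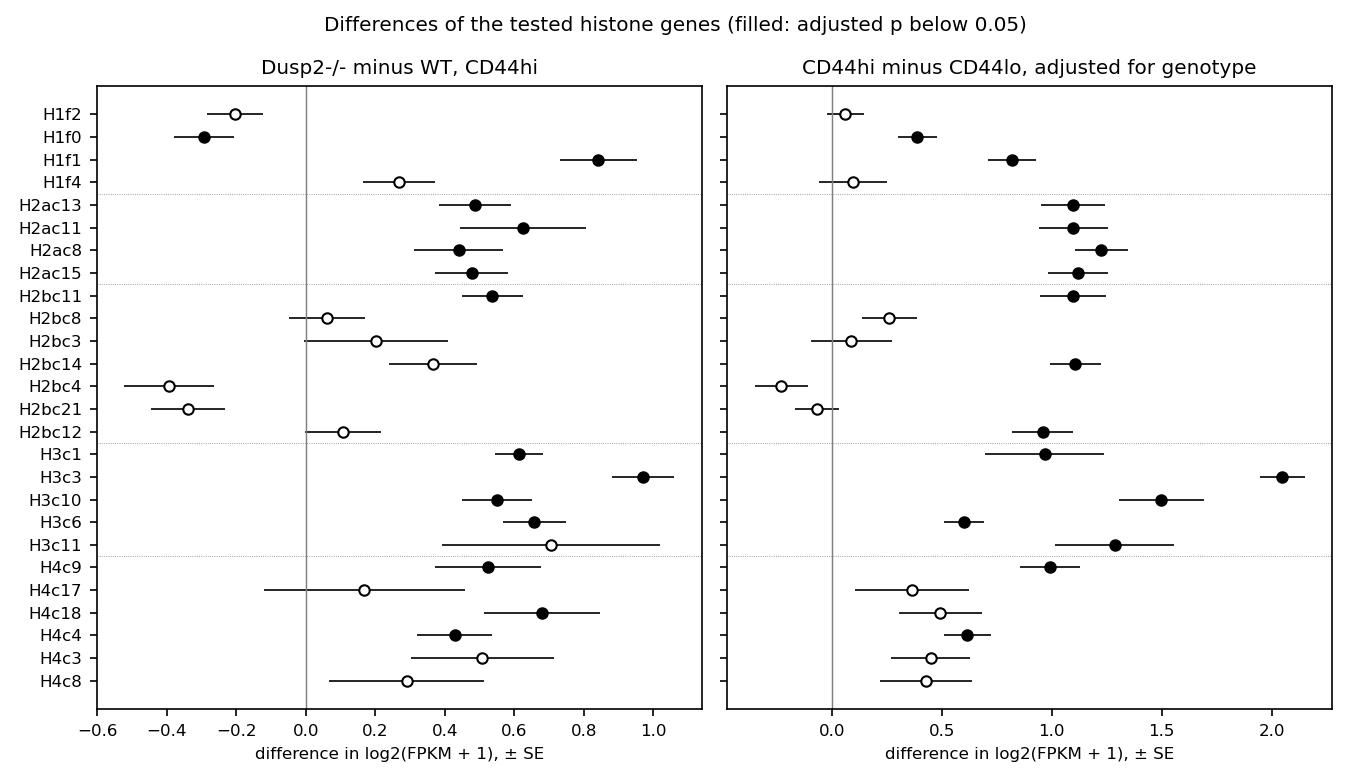
Differences in log2(FPKM + 1) with standard errors (x axis) for the 26 tested members (y axis, grouped by class), Dusp2-/- minus WT in CD44hi on the left and CD44hi minus CD44lo adjusted for genotype on the right; filled points passed limma at an adjusted p below 0.05. Core genes lie mostly to the right of 0 in both panels, and H1f0, H1f2, H2bc4 and H2bc21 lie to the left of 0 in the left panel. In the right panel, 9 members entered the test only through CD44hi, so their points are descriptions.

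Of the 4 tested linker histone genes 1 rose, 1 fell and 2 did not pass the test in Dusp2-/- CD44hi. H1f1, a replication-dependent H1, was at 3.24 and 2.68 FPKM in Dusp2-/- CD44hi, 1.15 and 1.26 in WT CD44hi, 1.36 in Dusp2-/- CD44lo and 0.186 in WT CD44lo. Its Dusp2-/- CD44lo value exceeded both WT CD44hi values, and it rose by 0.84 ± 0.11 log2 units in Dusp2-/- CD44hi (SE, limma adjusted p = 0.00462). Its difference between CD44hi and CD44lo was 0.82 ± 0.11 log2 units, a description since it entered the test through CD44hi. H1f5, below the filter, was at 1.62 and 1.37 FPKM in Dusp2-/- CD44hi, 0.340 and 0.428 in WT CD44hi, 0 in Dusp2-/- CD44lo and 0.238 in WT CD44lo, and in voom on recovered reads it rose by 1.91 ± 0.46 log2 units in Dusp2-/- CD44hi (adjusted p = 0.0139). H1f4 was at 1.28 and 1.42 FPKM in Dusp2-/- CD44hi, 0.881 and 1.02 in WT CD44hi, 1.74 in Dusp2-/- CD44lo and 0.468 in WT CD44lo, so its highest value was in a CD44lo library, and its CD44hi difference of 0.27 ± 0.10 log2 units did not pass the test (limma adjusted p = 0.101).

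H1f0, the replacement form, was at 3.92 and 3.61 FPKM in Dusp2-/- CD44hi, 4.64 and 5.03 in WT CD44hi, 2.65 in Dusp2-/- CD44lo and 3.44 in WT CD44lo. The Dusp2-/- values were the lower ones in each fraction, and it fell by 0.29 on the log2 scale in Dusp2-/- CD44hi (SE 0.087, limma adjusted p = 0.0499), a call at the threshold that was lost without either Dusp2-/- CD44hi library or without the second WT CD44hi library (limma adjusted p up to 0.345). It rose in CD44hi over CD44lo by 0.39 ± 0.089 log2 units (limma adjusted p = 0.0169), also lost without either Dusp2-/- CD44hi library (limma adjusted p up to 0.0744). H1f2, the H1 gene with the highest mean FPKM, was at 5.85 and 5.77 FPKM in Dusp2-/- CD44hi, 6.50 and 7.21 in WT CD44hi, 5.53 in Dusp2-/- CD44lo and 6.52 in WT CD44lo. It had log2 differences of -0.20 ± 0.081 between the genotypes in CD44hi (limma adjusted p = 0.105) and 0.060 ± 0.084 between the fractions (limma adjusted p = 0.625), neither past the threshold. H1f3 stayed between 0.148 and 0.295 FPKM in all libraries.

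**Figure D4:**
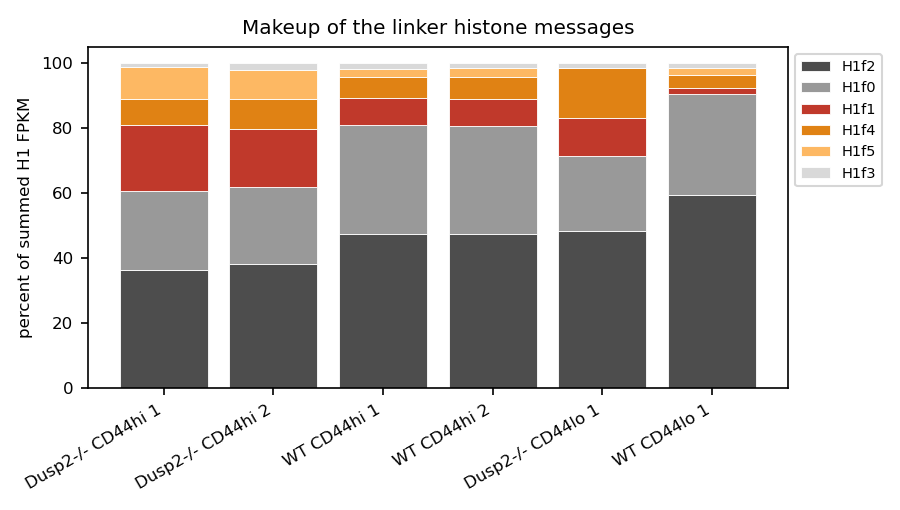
Share of each linker histone gene in the summed H1 FPKM (y axis, percent) in each library (x axis). H1f1 makes up 20.1% and 17.7% in Dusp2-/- CD44hi, 8.35% and 8.33% in WT CD44hi, 11.8% in Dusp2-/- CD44lo and 1.69% in WT CD44lo, and H1f2 runs from 36.4% to 59.3%.

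The makeup of the recorded H1 FPKM differed between the CD44hi groups while the H1 sums of these groups overlapped. H1f2 accounted for 36.4% and 38.1% of summed H1 FPKM in Dusp2-/- CD44hi, 47.3% and 47.5% in WT CD44hi, 48.3% in Dusp2-/- CD44lo and 59.3% in WT CD44lo. H1f5 accounted for 10.0% and 9.07% in Dusp2-/- CD44hi, 2.47% and 2.82% in WT CD44hi, 0 in Dusp2-/- CD44lo and 2.16% in WT CD44lo. These shares were described without a test. The annotated transcripts of H1f2 and H1f0 hold a polyadenylation signal (AATAAA or ATTAAA) in their last 40 bases. Those of H1f1, H1f3, H1f4 and H1f5 do not. Whether RNA was selected for a tail is not given, so the shares do not rank the H1 messages in the cells.

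In the CD44lo fraction, with 1 library per genotype and no test, 7 of the 26 were at least 2-fold higher in Dusp2-/- on the log2(FPKM + 1) scale and none was 2-fold lower, against 0.795% and 0.887% of all genes tested. The widest differences were 2.02 log2 units in H3c1, 1.45 in H3c10, 1.34 in H4c18, 1.22 in H3c3 and 1.20 in H2bc11. The Dusp2-/- CD44lo library was the shallowest. In Dusp2-/- and WT CD44lo, H3c10 had 26 and 7 recovered reads and H4c18 15 and 6, against 245 and 108 for H3c1. Whether the genotype difference itself changed with the fraction was tested by the interaction, in which 2 of 26 members were lower and none higher, against 1.49% and 2.73% of all genes tested. H3c1 had an interaction of -1.41 ± 0.12 log2 units (SE, limma adjusted p = 0.0144), from a CD44hi over CD44lo difference of 0.26 ± 0.084 in Dusp2-/- cells and 1.67 ± 0.084 in WT cells. H3c10 had one of -0.90 ± 0.17 (limma adjusted p = 0.0458), from differences of 1.05 ± 0.12 in Dusp2-/- cells and 1.95 ± 0.12 in WT cells. The count was 1 without the second Dusp2-/- CD44hi library, with H3c10 lost (limma adjusted p = 0.0692), 3 without the second WT CD44hi library and 6 without the first. With fraction adjusted for, 12 members were higher in Dusp2-/- and none was lower, against 5.23% and 5.17% of all genes tested, and the count was 4 without the first WT CD44hi library, 6 without any other CD44hi library and 15 without either CD44lo library.

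The sign of the genotype difference of the members in CD44hi went with the length of the gene model, and the part of length in the differences was not tested. All 20 tested members with a recovered length under 1000 bases had a positive log2 difference, with a median of 0.52, and their median between fractions was 0.98. The 9 members that entered the test only through CD44hi were all among these 20, so the median between fractions is a description. Of the 6 longer ones, H1f4 and H4c4 had a positive and H1f0, H1f2, H2bc4 and H2bc21 a negative log2 difference, with a median of -0.25 between genotypes and 0.08 between fractions. The 576 other tested genes under 1000 bases had a median log2 difference of -0.20 between genotypes in CD44hi, 0.050 in CD44lo and -0.10 between fractions. Across all tested genes the genotype difference had a Spearman rho with length of 0.27 in CD44hi and -0.33 in CD44lo. With a smooth trend on length removed from each library, the interaction of H3c10 fell short of the threshold at -0.62 log2 units (limma adjusted p = 0.126), and that of H3c1 kept its call at -1.13 (limma adjusted p = 0.0174).

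**Figure D5:**
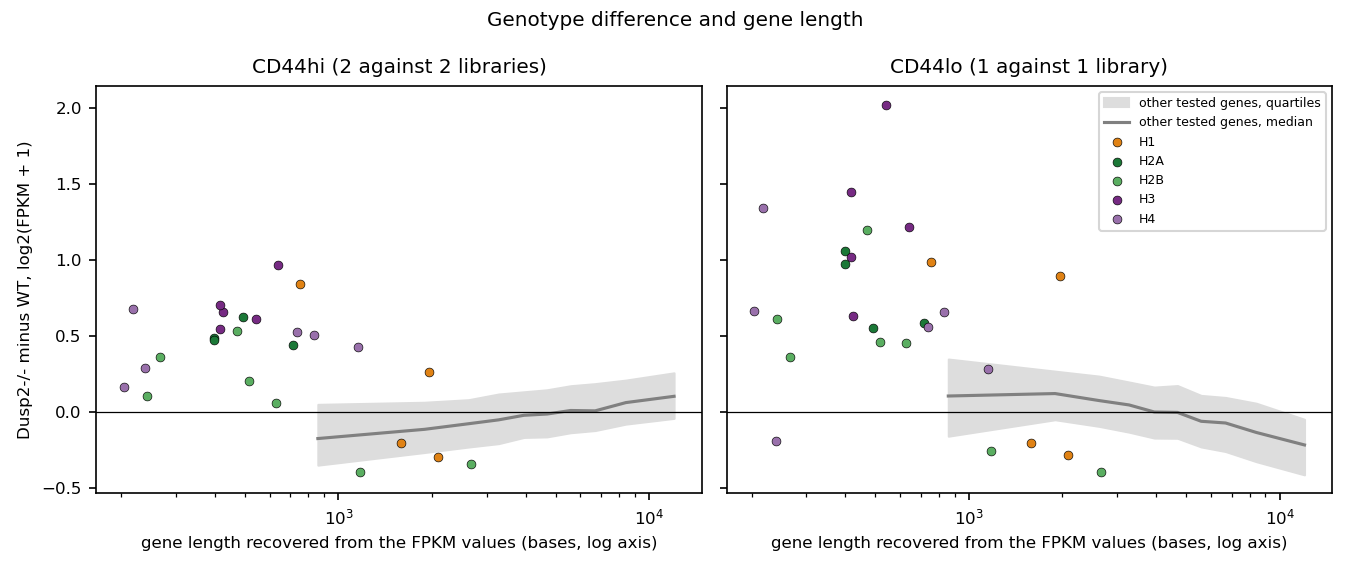
Genotype difference in log2(FPKM + 1) (y axis) against gene length recovered from the FPKM values (x axis, logarithmic), in CD44hi on the left and CD44lo on the right; coloured points are the 26 tested members by class, and the grey line and band are the median and quartiles of the other tested genes in 10 bins of length. The shortest bin has a median of -0.17 in CD44hi and 0.11 in CD44lo; the 20 members under 1000 bases all lie above its band in CD44hi, and in CD44lo 19 of them are above 0 and 1, H4c8, is at -0.19.

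Histone paralogs are near copies, and how reads that fit several genes were counted is not given in the sources used here, so the split of reads among them is uncertain. In GENCODE vM21 transcripts a median of 49.5% of a member's 50-base windows also occurred in a transcript of another gene, and in 26 members over 50% did. The share was 93.9% in H3c10, 90.1% in H2ac13, 59.4% in H2bc11, 49.5% in H3c1, 47.0% in H3c3 and 28.9% in H4c9. H1f0, H1f1, H1f5 and H2bc21 had no shared window, and among these H1f1 and H1f5 were higher and H1f0 and H2bc21 lower in both Dusp2-/- CD44hi libraries than in both WT CD44hi libraries. Across 55 members the Spearman rho between the share and the mean FPKM was -0.047, a description over genes that overlap in sequence.

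Of the 56 members found in the RefSeq gene table of GRCm38.p6, 50 lie on chromosome 13, 5 on chromosome 3 and 1, H1f0, on chromosome 15. That build is not the mm39 named in the submitters' processing notes, and its coordinates are used here only for the RefSeq promoter sequences, which span 250 bases before to 50 bases after each start and were given for 50 members. The box CCAAT or its reverse complement ATTGG occurred in the promoter of 41 of 50 members, against 37.4% of 32851 mouse promoters. It was in each of 14 H2A, 11 H2B and 8 H3 promoters and in 5 of 6 H1 promoters, but in 3 of 11 H4 promoters. TATAAA or TTTATA occurred in 30 of 50, against 13.6% of all promoters. The octamer ATTTGCAT or ATGCAAAT occurred in 9 of 50, in 5 H2A and 4 H2B promoters, against 1.74% of all promoters. The windows of 7 head-to-head pairs of an H2A and an H2B gene overlap. A match between their starts can therefore count for both genes, and these promoters are not all separate.

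The promoters shown are those of the genes with the largest rise in H3, H1 and H2B, of the leading H4 gene, and of H1f0 as the gene that fell. Capitals mark these motifs on either strand. The H3c3 promoter lies at chr13:23745472-23745771 on the minus strand of GRCm38.p6, that of H1f1 at chr13:23763418-23763717 on the plus strand, that of H2bc11 at chr13:22042948-22043247 on the plus strand, that of H4c9 at chr13:22041313-22041612 on the minus strand and that of H1f0 at chr15:79027962-79028261 on the plus strand.
H3c3 promoter: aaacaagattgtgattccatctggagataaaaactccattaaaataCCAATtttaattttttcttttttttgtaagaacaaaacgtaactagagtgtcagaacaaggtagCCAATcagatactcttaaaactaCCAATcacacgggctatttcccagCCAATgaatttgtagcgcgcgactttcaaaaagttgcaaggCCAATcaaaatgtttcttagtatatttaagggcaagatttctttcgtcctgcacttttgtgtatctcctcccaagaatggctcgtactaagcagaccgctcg
H1f1 promoter: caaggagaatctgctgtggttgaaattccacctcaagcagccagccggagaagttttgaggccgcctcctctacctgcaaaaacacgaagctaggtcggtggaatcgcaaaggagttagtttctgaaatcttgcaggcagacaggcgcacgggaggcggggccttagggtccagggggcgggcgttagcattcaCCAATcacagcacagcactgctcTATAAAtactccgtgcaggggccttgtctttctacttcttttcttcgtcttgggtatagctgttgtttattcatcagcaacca
H2bc11 promoter: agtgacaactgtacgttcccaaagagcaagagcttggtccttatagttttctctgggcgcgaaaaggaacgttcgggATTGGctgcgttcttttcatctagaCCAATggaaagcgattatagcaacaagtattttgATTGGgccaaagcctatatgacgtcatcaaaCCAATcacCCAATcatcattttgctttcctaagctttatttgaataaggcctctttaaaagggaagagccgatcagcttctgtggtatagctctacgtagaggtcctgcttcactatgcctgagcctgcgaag
H4c9 promoter: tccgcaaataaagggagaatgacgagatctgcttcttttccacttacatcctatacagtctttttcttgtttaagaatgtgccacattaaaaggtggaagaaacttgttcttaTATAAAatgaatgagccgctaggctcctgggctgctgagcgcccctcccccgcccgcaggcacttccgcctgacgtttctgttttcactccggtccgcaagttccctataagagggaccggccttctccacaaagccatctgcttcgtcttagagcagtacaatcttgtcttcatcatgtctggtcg
H1f0 promoter: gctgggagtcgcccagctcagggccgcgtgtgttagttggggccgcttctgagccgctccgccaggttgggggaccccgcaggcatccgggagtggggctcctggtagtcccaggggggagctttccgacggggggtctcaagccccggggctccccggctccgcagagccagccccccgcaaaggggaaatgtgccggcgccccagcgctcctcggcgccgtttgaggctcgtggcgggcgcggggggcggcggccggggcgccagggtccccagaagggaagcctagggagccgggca
The H3c3 and H2bc11 windows hold several CCAAT or ATTGG matches, the H1f1 window 1 beside a TATAAA, the H4c9 window a TATAAA and no CCAAT, and the H1f0 window none of these motifs. A match is a description of letters and not of a bound site.

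Several H2A and H2B genes are arranged head to head, with starts no more than 500 bases apart, and 7 such pairs were found among the members. Partners could differ widely in level. H2ac11 and H2bc11 start 249 bases apart and averaged 2.18 and 16.2 FPKM over the 6 libraries, whereas H2ac8 and H2bc8 start 180 bases apart and averaged 1.69 FPKM each. Both partners of the first pair rose in Dusp2-/- CD44hi, while of the second pair H2ac8 rose and H2bc8, with a log2 difference of 0.062 ± 0.11, did not pass the test.

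Genes that act on histone messages and histones were counted from lists chosen with earlier results of these data known. Of 31 tested genes for histone gene transcription and message processing, 7 rose and 2 fell in Dusp2-/- CD44hi, against 12.9% and 13.8% of all genes tested. Their median log2 difference was 0.0060, against -0.02 for all genes tested. Ccne2 and Ccne1, the cyclins E that drive entry into S phase with Cdk2, rose by 0.97 ± 0.11 and 0.47 ± 0.063 log2 units. Casp8ap2, a histone pre-mRNA processing factor known as FLASH, rose by 0.75 ± 0.075, and Npat, the coactivator of histone gene transcription, by 0.37 ± 0.074. Snrpg, an Sm protein, fell by 0.31, and Cpsf3, the nuclease that cuts histone pre-mRNA, fell by 0.26 on the log2 scale. Slbp was at 24.4 and 25.8 FPKM in Dusp2-/- CD44hi, 23.8 and 23.1 in WT CD44hi, 19.5 in Dusp2-/- CD44lo and 16.1 in WT CD44lo. It did not pass the genotype test (limma adjusted p = 0.335) and rose in CD44hi over CD44lo by 0.43 ± 0.078 log2 units, as did Ccne1 by 0.96 and Cdk2 by 0.70. In that comparison 7 of the 31 rose and 0 fell, against 16.6% and 10.8% of all genes tested. Ccne2, counted among the 7, was at 1.23 and 0.601 FPKM in Dusp2-/- and WT CD44lo and entered the test through CD44hi. Its difference of 1.44 log2 units is therefore a description.

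Of 32 tested histone chaperones and assembly factors, 8 rose and 2 fell in Dusp2-/- CD44hi, against 12.9% and 13.8% of all genes tested. In CD44hi over CD44lo 13 rose and 1 fell, against 16.6% and 10.8% of all genes tested. Chaf1a and Chaf1b, subunits of the CAF-1 complex that deposits new H3 and H4 behind the replication fork, rose by 0.50 ± 0.094 and 0.53 ± 0.081 log2 units in Dusp2-/- CD44hi and by 1.18 ± 0.13 and 0.87 ± 0.084 in CD44hi. Supt16, a subunit of FACT, rose by 0.79 ± 0.070 and Atrx by 0.58 ± 0.13 in Dusp2-/- CD44hi. Daxx, which with Atrx deposits the variant H3.3, fell by 0.42 in Dusp2-/- CD44hi and by 1.03 in CD44hi over CD44lo, and Ipo4, an importin that carries histones, fell by 0.47 in Dusp2-/- CD44hi. Asf1b and Mms22l rose by 0.92 ± 0.081 and 0.85 ± 0.083 in CD44hi over CD44lo.

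Replication-independent histone variants are made outside S phase as well. Of 10 tested, none rose and 6 fell in Dusp2-/- CD44hi (12.9% and 13.8% of all genes tested), with a median log2 difference of -0.35, and 1 of the 6 is H1f0. H3f3b, a gene for the H3 variant H3.3, was at 205 and 212 FPKM in Dusp2-/- CD44hi, 271 and 286 in WT CD44hi, 281 in Dusp2-/- CD44lo and 292 in WT CD44lo. It fell by 0.42 on the log2 scale (SE 0.074, limma adjusted p = 0.0113) and each value exceeded the summed FPKM of all cluster H3 genes in the same library. Cluster H3 messages typically lack a poly(A) tail and whether RNA was selected for a tail is not given. These recorded levels therefore do not rank the messages in the cells. H2az2, a gene for H2A.Z, fell by 0.50, H2aj by 0.44, Cenpa, the centromeric H3, by 0.41 and H2bu2 by 0.66 in Dusp2-/- CD44hi. In CD44hi over CD44lo, H2az1, the other H2A.Z gene, rose by 0.47 ± 0.086 and H1f0 rose, while H2az2 fell by 0.65 and H2bu2 by 0.71.

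S phase reference genes, a list without histones, had 28 of 36 higher and 0 lower in Dusp2-/- CD44hi (12.9% and 13.8% of all genes tested), with a median log2 difference of 0.48. In CD44hi over CD44lo 34 of 36 were higher (16.6% of all genes tested), with a median of 0.98. Rrm2, a ribonucleotide reductase subunit, was at 59.9 and 58.9 FPKM in Dusp2-/- CD44hi, 20.5 and 19.9 in WT CD44hi, 9.25 in Dusp2-/- CD44lo and 2.44 in WT CD44lo. The medians of the 22 tested core histones in these comparisons were 0.48 and 0.96 log2 units. The second is a description, since it includes members that entered the test only through CD44hi. The 17 members that did not, H1 genes among them, had a median of 0.49 between fractions. The S phase list also holds such genes, among them Mki67, at 0.491 and 0.351 FPKM in Dusp2-/- and WT CD44lo. In other comparisons the medians lay further apart. Between fractions they were 0.70 for core histones and 1.06 for the S phase list within Dusp2-/- cells, and 1.04 and 0.90 within WT cells. These are descriptions for the same reason. In the interaction the medians were -0.25 and 0.08, with 2 of 22 core genes lower and 2 of 36 S phase genes higher. The part of the share of cells in S phase in the histone differences was not tested.

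Other values moved with the groups and their part in the histone differences was not tested. Cd8a was at 246 to 358 FPKM and Cd8b1 at 357 to 605 FPKM in all libraries, and Cd4 at no more than 0.0228 FPKM. Of the 4 markers of CD8 T cells, Cd3e and Cd3g fell in Dusp2-/- CD44hi, by 0.64 and 0.45 on the log2 scale. Cd3e was at 51.7 and 53.5 FPKM in Dusp2-/- CD44hi, 88.6 and 76.9 in WT CD44hi, 69.9 in Dusp2-/- CD44lo and 81.7 in WT CD44lo. Cd8a and Cd8b1 fell in CD44hi over CD44lo, by 0.41 and 0.55 on the log2 scale. Cd44 was at 65.3 to 79.9 FPKM in the CD44hi libraries and at 1.33 and 1.43 FPKM in the CD44lo libraries. Of the B cell markers with a row, Cd79a was at no more than 0.379 FPKM, whereas Cd79b was at 22.4 and 24.5 FPKM in Dusp2-/- CD44hi, 12.2 and 9.88 in WT CD44hi, 11.2 in Dusp2-/- CD44lo and 6.92 in WT CD44lo. Summed markers reached at most 1.68 FPKM for myeloid cells, 0.0466 FPKM for NK cells, 0.375 FPKM for erythroid cells and 0.0545 FPKM for platelets. Malat1, a nuclear RNA, was at 39.2 FPKM in the first WT CD44hi library and between 10.7 and 23.2 FPKM in the others. Neat1, also a nuclear RNA, fell by 0.72 on the log2 scale in Dusp2-/- CD44hi (limma adjusted p = 0.00862), where it was at 0.763 and 0.759 FPKM, against 2.16 and 1.65 in WT CD44hi, with 2.00 in Dusp2-/- CD44lo and 1.99 in WT CD44lo. Of 19 abundant RNAs known to lack a poly(A) tail, 2 had a row, Rny1 and Rnu12, and they summed to between 0 and 0.358 FPKM.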

How the data were processed

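RNA of sorted mouse CD8+ T cells was measured in 6 libraries. The values are FPKM as the authors deposited them in 1 table of 18122 rows, with 0 value columns unused. The submitters' processing notes list HISAT2 2.0.5, and mm39 beside hg38 as builds. Counter, annotation and strand handling were not given in the sources used here. As given in the labels' protocols, RNA was extracted with Trizol. The labels also name 10X Genomics. Values are bulk values per library.

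Members, gene lists and tests were chosen with earlier results of these data known. Differences were tested with limma 3.58.1 (R 4.3.3) for 9691 genes averaging at least 1 FPKM, as log2(FPKM + 1), whose pseudocount of 1 shrinks differences of low genes, with a variance trend, two-sided, adjusted by Benjamini-Hochberg at 0.05. A model with 1 coefficient per group gave the comparisons within a fraction or genotype and the interaction, and an additive model gave those adjusted for the other factor. The CD44lo pair and class sums had no test. Tests were tried on simulated data.

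Whole reads were recovered from FPKM steps for 16220 of 16220 rows above 0 in 2 or more libraries (100%, tolerance 1e-06), as the smallest numbers that fit. For 13 of 55 members the recovered length was between 0.5 and 0.515 times the GENCODE transcript, so their recovered reads and lengths may be too small by that factor. Limma voom on these reads was an alternative and called 8 of the 26 tested members in Dusp2-/- against WT CD44hi, or 5 of 50 with a minimum of 10 reads. Deviations of libraries with the same replicate number correlated at 0.022 across genes, so the numbers were not taken to pair libraries. Named genes were H1f0 to H1f5 and, in each core class, the 4 with the highest mean FPKM and the extremes. Those called in the interaction were also named, with up to 4 genes per list, direction and comparison. H2bc12, H2bc21, H3c8, H3c11, H4c3 and H4c8 were added after their values were seen. Depth, floors and alternatives are given with the results.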

Additional observations from a re-analysis of the deposited data

Results flagged for a closer look

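The genotype difference of H3c1 differed between the fractions, with an interaction of -1.41 log2 units (limma adjusted p = 0.0144). It was 0.61 log2 units in CD44hi and 2.02 in CD44lo, higher in each Dusp2-/- library than in the WT libraries of its fraction. In fits that left out a CD44hi library the interaction ran from -1.36 to -1.46 log2 units. Such fits cannot test the CD44lo pair, which is 1 library per genotype. The call was lost with the filter on low values removed (limma adjusted p = 0.0715).

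The genotype difference of H3c10 differed likewise, with an interaction of -0.90 log2 units (limma adjusted p = 0.0458). It was 0.55 log2 units in CD44hi and 1.45 in CD44lo. The CD44lo values are 1 library per genotype, and the call was lost without the second Dusp2-/- CD44hi library, with no filter on low values (limma adjusted p = 0.155), with quantile normalization (0.0581), with the length trend removed (0.126), without the variance trend (0.0554) and in voom on recovered reads (0.0698, and 0.182 with a minimum of 10 reads).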

How the results depend on the processing

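Over the 26 tested members and 6 comparisons, 0 values with a call changed sign under any alternative run, while 78 values without a call did, and the counts moved as follows. With a minimum of 5 FPKM, 5 members were tested and 4 passed in Dusp2-/- against WT in CD44hi, in CD44hi against CD44lo in each genotype and adjusted for genotype, and in Dusp2-/- against WT adjusted for fraction. With no filter on low values, 0 passed in Dusp2-/- against WT in CD44hi (limma, 19 at an unadjusted p below 0.05), 8 in CD44hi against CD44lo in Dusp2-/- and 8 in WT, 3 in Dusp2-/- against WT adjusted for fraction and 0 in the interaction (12 unadjusted). Voom on recovered reads called 8 in Dusp2-/- against WT in CD44hi, 8 in CD44hi against CD44lo in Dusp2-/-, 6 adjusted for fraction and 1 in the interaction, and with a minimum of 10 reads, chosen after seeing the data, 5, 5 (4 higher and 1 lower), 4 and 1. The interaction had 5 calls with a pseudocount of 0.1, 1 with quantile normalization, 1 with the length trend removed and 1 without the variance trend. Leaving out each library gave 9 to 15 calls in Dusp2-/- against WT in CD44hi, 4 to 15 adjusted for fraction and 1 to 6 in the interaction. The cause of these shifts was not tested beyond the fewer genes or libraries that enter.

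The replicate number as a block gave 18 calls in Dusp2-/- against WT in CD44hi, 18 and 19 in CD44hi against CD44lo in Dusp2-/- and in WT, 16 adjusted for genotype, 9 in Dusp2-/- against WT adjusted for fraction and 4 in the interaction, and the numbers are not known to pair libraries. In the CD44lo pair, members at least 2-fold higher in Dusp2-/- numbered 16 with a pseudocount of 0.1, 11 with 0.5 and 13 after rescaling to a total of 1000000. The log2 ratio of H1 sums in CD44hi, 0.11, was -0.054 in reads scaled to depth and 0.37 without H1f2. For H2B, 0.39, it was 0.17 in reads scaled to depth and 0.082 without H2bc11, and for H3, 0.81, it was 0.93 without H3c1. In all, 7 members had under 10 recovered reads over the 6 libraries, which limits what could be detected in them.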
